A study of Danio rerio with 54 samples.

Results

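The cytosolic ribosome of the zebrafish retina was followed through 81 genes whose symbols begin with rpl, rps or rplp and a number, leaving out the S6 kinases (rps6k) and rps19bp. They were 81 of the 15245 genes in the count tables, 44 for the large subunit, 33 for the small subunit and 4 for the stalk, and all 81 had enough reads to be tested. The samples were single whole retinas (the left eye) of adult albino zebrafish aged 6 to 9 months, sequenced from 250 ng of RNA at the 3′ ends of polyadenylated transcripts, 6 retinas in each of 9 groups. Fish of the 24, 36 and 72 hpl and 5, 10, 14 and 28 dpl groups (hours or days after the onset of light) spent 5 days in the dark, then 30 min in light of about 100000 lux, and then stood under halogen light of about 10000 lux until collection or for 3 days at most. Those kept beyond 72 hpl went back to 14 h of light and 10 h of dark per day. Fish of the 0 h group had the 5 days of dark and no bright light, and naïve fish had neither the dark adaptation nor the lesion and stayed on the 14 h and 10 h cycle. All groups shared the albino background and the age range. The column names of the naïve retinas carry a single age within that range, and no age per fish is given for the other groups. The study calls the naïve fish age-matched.

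Every ribosome has a small (40S) subunit that reads the mRNA and a large (60S) subunit that joins the amino acids. Both are built in the nucleolus from rRNA and one copy of most ribosomal proteins, while the stalk of the large subunit (P0 with pairs of P1 and P2) recruits the elongation factors. In mammals the mRNAs of these proteins start with a run of pyrimidines (5′ TOP), through which mTOR and LARP1 set their translation and stability together. Cells that enter the cell cycle or grow need more ribosomes, and in the injured zebrafish retina Müller glia re-enter the cycle and give rise to the progenitors that replace photoreceptors.

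Libraries held 1111503 to 4040445 counted reads, apart from 5 dpl replicate 2 with 228611. The retinas came from 2 experiments of 3 fish per group (replicates 1 to 3 and replicates 4 to 6), and the naïve fish are tied to neither experiment in the sources used here. Over the time-course 77 members were higher and 2 lower in experiment 2 than in experiment 1 (median log2 difference 0.46, where 54.1% of all genes passed the same test), so values within each experiment stand beside the pooled ones. The labelled tissue was checked at 0 h. The rod list summed to a median of 38538 CPM (a gene's reads scaled to a common library total) and the cone list to 49357, with none of their measured genes at 0, while the 17 lens genes summed to a median of 37.9 CPM (382 CPM in the highest retina).

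The members together took a larger share of the reads at every time from 24 hpl to 14 dpl than at 0 h. At 0 h they held 3.14 to 3.99% of the counted reads of a library (median 3.40%). The range was 9.15 to 11.7% with a median of 10.4% at 24 hpl, and 10.1 to 14.0% with a median of 11.7% at 36 hpl. At 72 hpl it was 10.4 to 13.4% (median 11.8%). The median was then 3.05, 3.44 and 3.48 times that of 0 h at 24, 36 and 72 hpl, and no retina of these times overlapped with the 0 h retinas. At 5 dpl the median was 10.5%, with 5 retinas at 8.91 to 11.2% and the shallow replicate 2 at 3.89%, inside the range of 0 h. A low read total does not by itself lower a percent of the reads, and why this library stood apart was not tested. In it rpl35a had 2253 CPM, the highest of the 5 dpl retinas, and rps27.2 had 109 CPM, the lowest. At 10 dpl the share was 5.00 to 6.13% (median 5.77%) and at 14 dpl 4.32 to 5.67% (median 4.85%), still above every 0 h retina. At 28 dpl it was 3.83 to 4.65% (median 3.94%, 1.16 times that of 0 h), and the 2 groups overlapped. These shares are a description with no test.

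**Figure D1:**
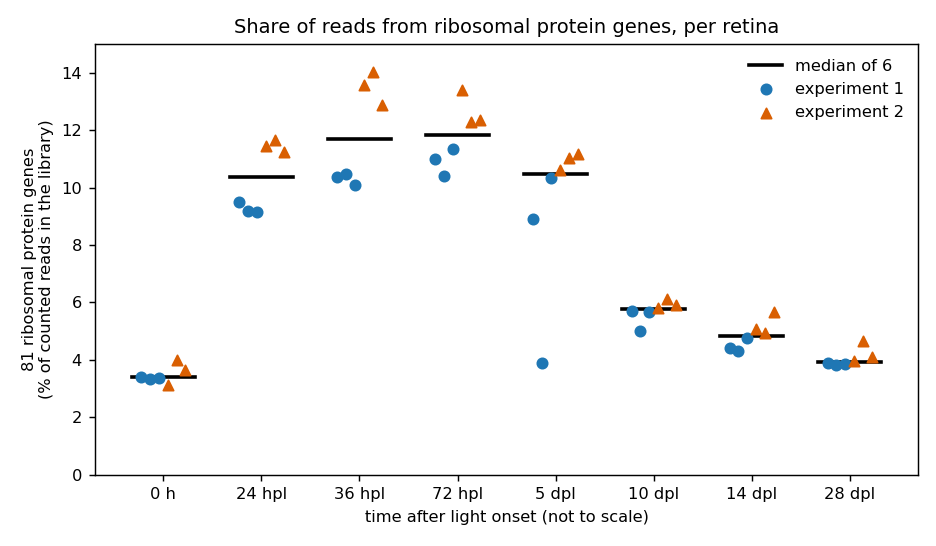
Each point is the percent of counted reads that came from the 81 ribosomal protein genes in 1 retina, by time, with experiments 1 and 2 in separate colours and symbols and a bar at the median of 6. The 24, 36 and 72 hpl retinas lie at 9.15% or more, with experiment 2 above experiment 1 at each of these times, and 1 retina of 5 dpl (3.89%) lies at the level of 0 h.

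The 2 experiments did not overlap at 24, 36 and 72 hpl. At 36 hpl the 3 retinas of experiment 2 held 12.9 to 14.0% and those of experiment 1 10.1 to 10.5%. At 0 h the experiments overlapped, with 3.14 to 3.99% in experiment 2 and 3.33 to 3.42% in experiment 1. The rise was therefore present in each experiment, with a different height.

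Photoreceptor genes took a smaller share of the reads at the same times. The rod and cone lists together took a median of 8.73% of the reads at 0 h. It was 0.760% (24 hpl), 0.811% (36 hpl), 0.613% (72 hpl) and 2.07% (5 dpl), and 8.77% at 10 dpl. With those genes out of the total, the members held a median of 10.4% at 24 hpl against 3.72% at 0 h, and 11.9% at 72 hpl. These lists do not hold all genes of photoreceptors and took 8.73% of the reads at 0 h. Leaving them out could therefore move the share only a little and is no check on photoreceptor loss. The list of 18 genes of cycling cells summed to a median of 2562 CPM at 36 hpl and 2404 CPM at 72 hpl, against 335 CPM at 0 h. Its 17 tested genes had a median log2 fold change of 1.30 at 24 hpl against 0 h, and of 1.80 from 24 to 36 hpl. For the members these medians were 1.44 and 0.21. The 19 genes of microglia and macrophages summed to 2795 CPM at 36 hpl and 2855 CPM at 72 hpl, against 911 CPM at 0 h. By the edgeR test described below, 6 of 11 Müller glia genes were lower and 2 higher at 24 hpl (median log2 −0.87). Of 21 genes of inner retinal neurons 12 were lower and 4 higher (−0.58), where 17.7% of all genes were lower and 19.0% higher. At 72 hpl Müller glia had 2 lower and 4 higher (−0.02), and inner retinal neurons 10 lower and 5 higher (−0.40). Of all genes 20.2% were then lower and 22.7% higher. Fewer cells of one type and less RNA per cell cannot be told apart in whole retinas, and the part of these cell types in the members' rise was not tested.

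Gene by gene, every member except rps8b rose. At 24 hpl 80 members passed the test as higher than at 0 h and 1 as lower (quasi-likelihood test of edgeR, adjusted over 13075 genes after Benjamini and Hochberg, threshold 0.05), where 19.0% of all genes were higher and 17.7% lower. 80 and 1 also passed at 36 hpl (all genes 23.6% higher and 23.4% lower), at 72 hpl (22.7% and 20.2%) and at 5 dpl (17.5% and 14.3%). At 10 dpl 77 members were higher and none lower, where 7.06% of all genes were higher and 2.85% lower. At 14 dpl 78 were higher and none lower (all genes 8.5% and 4.67%). The members' median log2 fold change was 1.44 (24 hpl), 1.65 (36 hpl), 1.70 (72 hpl) and 1.4 (5 dpl), and 0.82 and 0.64 at 10 and 14 dpl. The median over all genes was −0.10 at 24 hpl and −0.04 at 72 hpl.

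Within experiment 1 alone 80 members were higher at 24, 36 and 72 hpl with medians of 1.38, 1.52 and 1.69. Of all 12726 genes tested there 2000, 2301 and 2320 were higher. Within experiment 2 alone 80 members were higher at each of these times, with medians of 1.66, 1.87 and 1.79 (2068, 2763 and 2417 of all 12023 genes). At 14 dpl 12 members passed as higher in experiment 1 alone and 69 in experiment 2 alone, with medians of 0.59 and 0.63. Of all genes 419 of 12726 and 630 of 12023 were higher. The tests against 0 h all share the same 6 control retinas, so the counts at different times are not independent of each other.

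The quartiles of the members' log2 fold changes were 1.5 and 1.86 at 36 hpl. The SD over members was 0.38 (24 hpl), 0.41 (36 hpl), 0.46 (72 hpl) and 0.41 (5 dpl), and 0.12 at 28 dpl, where the median was smallest. Large subunit, small subunit and stalk genes had medians of 1.65, 1.78 and 2.05 at 72 hpl. By the median CPM of 6 retinas, 42 members were highest at 36 hpl, 37 at 72 hpl, 1 at 5 dpl and 1 at 0 h. In single retinas, every 36 hpl value lay above every 0 h value for 80 members, against 16.2% of all genes, and at 5 dpl, where the shallow library is among the 6, for 22 members, against 4.44% of all genes.

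**Figure D2:**
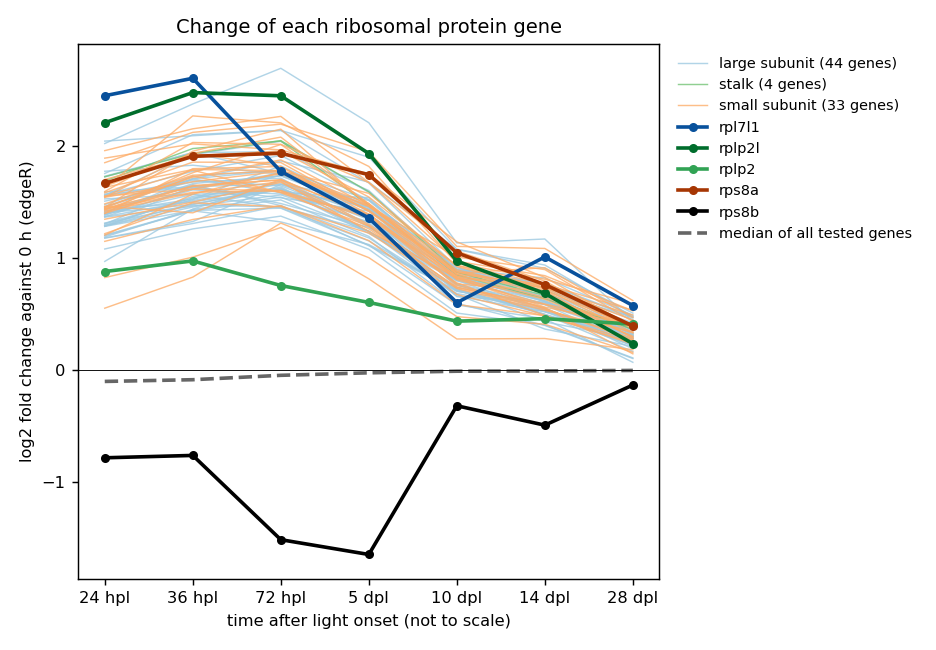
Each thin line is the log2 fold change of 1 ribosomal protein gene against 0 h by edgeR, coloured by subunit, with 5 genes drawn thick and the median of all tested genes dashed. All lines lie above 0 from 24 hpl to 28 dpl except rps8b, which is at −1.51 at 72 hpl and −1.64 at 5 dpl, and rpl7l1 (2.61) and rplp2l (2.48) are highest at 36 hpl.

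The stalk gene rplp1, which encodes the acidic protein P1, was the most abundant member at all 8 times. It had 1091, 1166 and 1326 CPM as the lowest, median and highest of the 0 h retinas. The values were 3743, 4353 and 4803 CPM at 24 hpl, 4339, 4831 and 5501 CPM at 36 hpl and 4532, 5016 and 5377 CPM at 72 hpl. All damaged retinas up to 14 dpl lay above all 0 h retinas. The log2 fold change was 1.73 ± 0.10 (SE) at 24 hpl and 2.05 ± 0.10 at 72 hpl (edgeR, adjusted p = 1.9e-23), the smallest p of the members there. At 28 dpl it had 1309, 1425 and 1522 CPM (log2 fold change 0.36 ± 0.10, adjusted p = 0.0158).

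The next most abundant members at 0 h were rpl3, a core protein of the large subunit near the peptidyl transferase centre, and rps18 of the small subunit. rpl3 had a median of 3314 CPM at 72 hpl, against 1112 CPM at 0 h (log2 fold change 1.52 ± 0.13). For rps18 the median was 3022 CPM at 72 hpl, against 944 CPM at 0 h (1.69 ± 0.17). The kit gives 1 read per transcript end, so these levels compare transcripts without a correction for length.

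Of the large subunit genes with the smallest p, rpl35a is mutated in some patients with Diamond-Blackfan anaemia, and rpl13a in mammals also leaves the ribosome to silence inflammatory mRNAs. rpl35a had 2015, 2079 and 2377 CPM at 36 hpl, against 517, 616 and 672 CPM at 0 h. Its log2 fold change was 1.71 ± 0.10 at 36 hpl and 0.83 ± 0.10 at 10 dpl. rpl13a had 1176, 1483 and 1772 CPM at 36 hpl, against 403, 443 and 516 CPM at 0 h, a log2 fold change of 1.61 ± 0.10. For both genes the damaged retinas stood clear of the 0 h retinas up to 14 dpl. rpl13 (1.74 ± 0.11 at 72 hpl) and rpl17, whose protein lies at the exit tunnel (0.85 ± 0.11 at 10 dpl), were among the 4 smallest p at 1 time each.

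Among the small subunit genes rps15a, rps8a and rps26l stood among the smallest p in at least 1 comparison each. rps15a had 604, 853 and 1073 CPM at 72 hpl, against 101, 179 and 224 CPM at 0 h (log2 fold change 2.2 ± 0.16), and it still had 174, 243 and 366 CPM at 28 dpl (0.62 ± 0.16, adjusted p = 0.00792). rps26l, a copy of the rps26 gene whose protein sits where the mRNA leaves the ribosome, had 1468, 1570 and 1749 CPM at 72 hpl, against 227, 349 and 498 CPM at 0 h (2.08 ± 0.18). Both were above every 0 h retina at 72 hpl.

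For the members as a set the log2 fold change in experiment 2 less that in experiment 1 had a median of 0.33 at 36 hpl and 0.42 at 5 dpl, against −0.02 and 0.02 over all genes. At 72 hpl the median was 0.06 and at 28 dpl 0.01. At 5 dpl experiment 1 holds the shallow library, and these medians are given with no test.

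The smallest rises belonged to rps27.1 at 24 and 36 hpl and to rplp2 at 72 hpl and 5 dpl. rps27.1, which encodes the zinc finger protein S27, had 805, 900 and 1008 CPM at 24 hpl, against 494, 572 and 655 CPM at 0 h (log2 fold change 0.55 ± 0.13). Its level at 72 hpl was 1313, 1401 and 1622 CPM (1.31 ± 0.13), and it was the one member higher at 72 hpl than at 36 hpl (log2 0.48 ± 0.13, adjusted p = 0.0077 by edgeR), a call lost in either experiment alone and with no term for experiment. Every 72 hpl retina lay above every 36 hpl retina, whose highest value was 1274 CPM.

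The member that fell was rps8b, which with rps8a encodes the small subunit protein S8. It had 8.1, 23.3 and 25.5 CPM at 0 h, where 5 retinas had 20.5 CPM or more. At 72 hpl the values were 1.03, 8.62 and 13.6 CPM (log2 fold change −1.51 ± 0.33, adjusted p = 0.00014), and at 5 dpl 1.69, 8.69 and 13.5 CPM (−1.64 ± 0.34, adjusted p = 0.00013). The single low 0 h retina overlapped with both times, and the other 5 did not. The gene is rare, with 2 reads in the lowest 72 hpl library. At 24 and 36 hpl its log2 fold changes were −0.78 ± 0.32 and −0.76 ± 0.31 (adjusted p = 0.0467 and 0.0389), and these calls were lost within each experiment alone and without a term for experiment, while those at 72 hpl and 5 dpl held in both. From 5 to 10 dpl it was the 1 member that rose (log2 1.33 ± 0.34, adjusted p = 0.00491), a call that experiment 1 alone did not give (log2 0.67).

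Its partner rps8a did the opposite. rps8a had 656, 810 and 957 CPM at 72 hpl, against 154, 208 and 226 CPM at 0 h (log2 fold change 1.94 ± 0.15). rps8b made up a median of 9.42% of the reads of the pair at 0 h. The median fell below that at later times, to 1.87% (24 hpl), 1.83% (36 hpl), 1.09% (72 hpl), 1.16% (5 dpl) and 3.51% (10 dpl), with adjusted p = 0.0082 to 0.019 by the exact permutation test. It was 7.25% at 28 dpl (adjusted p = 0.25, exact permutation test). At 24, 36 and 72 hpl each retina lay below every 0 h retina.

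In all, 7 pairs of members share a stem and number, and in 20 of 49 comparisons (7 pairs at 7 times) the share of the first gene differed from 0 h. The test was exact, by permutation of the 6 and 6 retinas and two-sided, and was added after the values were seen. The p-values were adjusted over the 49, and 0.0022 is the smallest that this exact test can give. It mixes retinas of both experiments, and shares differed between them for some pairs. At 14 dpl rps8b made up a median of 1.97% of its pair in experiment 2 and 6.99% in experiment 1. With labels exchanged only within an experiment, which was also added later and can give no p below 0.005, the same 20 comparisons passed and 3 more did (rpl5b at 24 hpl, rplp2l at 10 dpl and rps8b at 14 dpl), 23 in all by the exact permutation test. How the counting treated reads that fit both genes of a pair is not given in the sources used here, so shares between near-identical copies are uncertain.

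The widest shift was in the pair for the stalk protein P2. rplp2l gave a median of 48.8% of the pair's reads at 0 h (range 42.0 to 56.8%), 71.8% at 24 hpl, 73.6% at 36 hpl, 75.7% at 72 hpl and 71.8% at 5 dpl. Each retina at these 4 times lay above every 0 h retina (exact permutation p = 0.0022 and adjusted p = 0.0082 at each). At 28 dpl the median was 44.2% (range 41.3 to 54.1%). In levels, rplp2l had 3200, 3484 and 4206 CPM at 36 hpl, against 448, 639 and 689 CPM at 0 h (log2 fold change 2.48 ± 0.14). rplp2 had 956, 1342 and 1631 CPM at 36 hpl, against 494, 561 and 896 CPM at 0 h (0.98 ± 0.16). Both genes rose, by different amounts.

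The pair of rpl22 and rpl22l1 is known from zebrafish and mouse blood development, where the products act in opposition. rpl22l1 made up a median of 33.8% of the pair at 24 hpl (range 30.0 to 37.7%), against 21.9% at 0 h (18.4 to 27.9%), with no overlap. It rose by log2 2.05 ± 0.17 at 24 hpl and rpl22 by 1.18 ± 0.17. By 14 dpl the median was 22.5%.

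rpl7l1 is related to Rlp7, a yeast factor of large subunit assembly, and was the rarest member at 0 h with 4.50, 8.78 and 11.9 CPM. It had 46.1, 52.9 and 63.8 CPM at 24 hpl and 35.8, 56.8 and 78.2 CPM at 36 hpl, a log2 fold change of 2.45 ± 0.25 and then 2.61 ± 0.25. At 72 hpl it had 26.4, 29 and 42.2 CPM, the only member lower than at 36 hpl (log2 −0.83 ± 0.21, adjusted p = 0.00386 by edgeR), and experiment 1 alone did not call it (log2 −0.60). Its share of the pair with rpl7 was a median of 1.97% at 0 h, 4.29% at 24 hpl and 2.44% at 72 hpl.

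rpl5b encodes with rpl5a the protein that carries the 5S rRNA into the large subunit. Its share was a median of 49% at 36 hpl, against 42.8% at 0 h (adjusted p = 0.0082 by the exact permutation test), with every 36 hpl retina above the 0 h retinas. The shares of rps27.2 with rps27.1 and of rps26l with rps26 moved less, with medians of 48.1% at 24 hpl against 43.5% at 0 h for rps27.2 (adjusted p = 0.024, exact permutation test), the only time that passed for this pair. For rps26l the medians ran between 74.1% and 80.9% over the 8 times and no test passed.

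**Figure D3:**
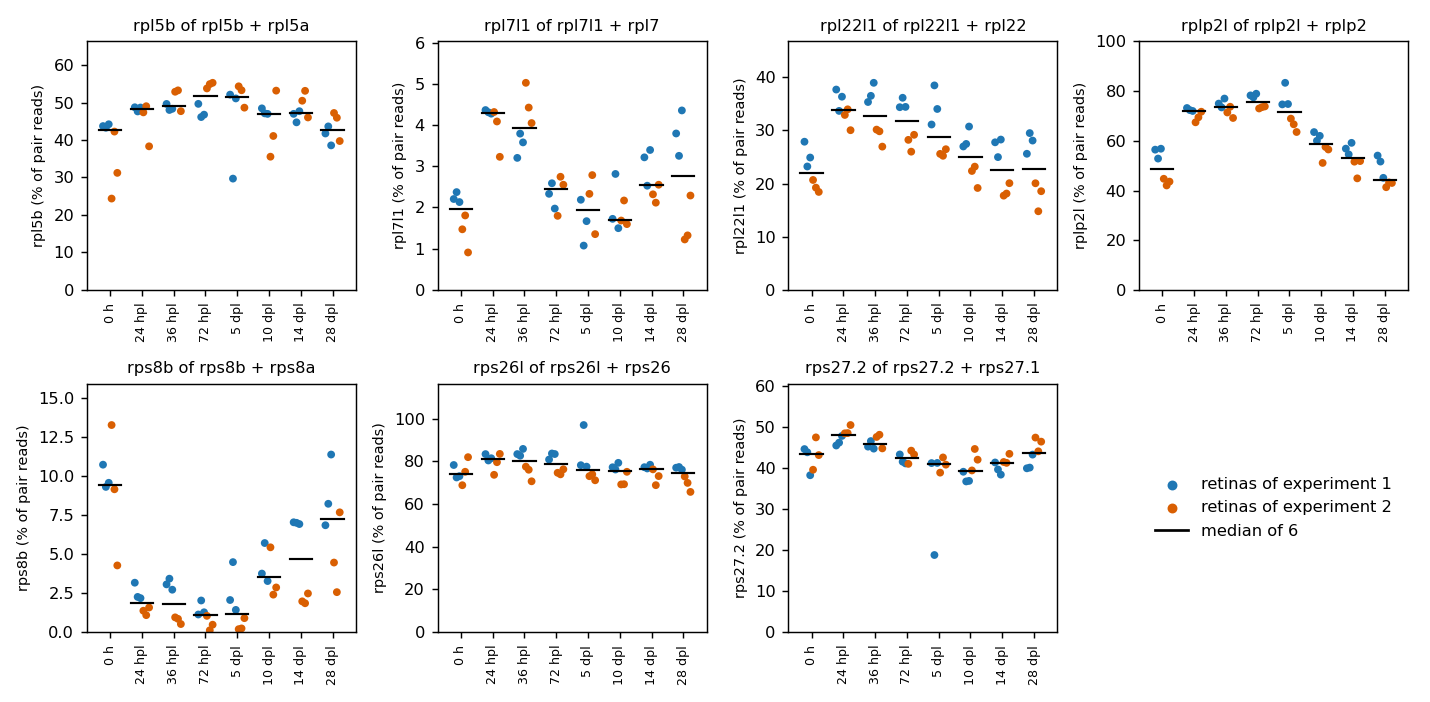
Each panel shows 1 pair of genes, and each point is the percent of the pair's reads that came from the gene named first, in 1 retina, by time, with a bar at the median of 6. rplp2l lies at 63.5% or more in all retinas from 24 hpl to 5 dpl and at 56.8% or less at 0 h, and rps8b lies at 4.48% or less from 24 hpl to 5 dpl.

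Beyond the first step, the rise at 24 hpl against 0 h, few members passed the test between neighbouring times up to 72 hpl. Of the 81 log2 fold changes from 24 to 36 hpl 80 were above 0, with a median of 0.21 (−0.01 over all genes). For the step from 36 to 72 hpl 56 were above 0 and 25 below, with a median of 0.07 (0.02 over all genes). The members were measured in the same retinas, so these signs are not independent of each other and are no test. The share of all genes on each side of 0 is not given here. From 24 to 36 hpl 1 member was higher (rpl38, log2 0.34 ± 0.12), where 6.2% of all genes were higher and 5.25% lower, and from 36 to 72 hpl 1 was higher and 1 lower (6.68% and 5.92% of all genes). The rpl38 call was lost in either experiment alone, with limma, with no filter, with the replicate block and with no term for experiment. Without 5 dpl replicate 2 in the fit, 16 and 4 members were higher at these steps, where 977 and 1005 of all 13074 genes were. From 72 hpl to 5 dpl 12 members were lower and none higher, where 6.96% of all genes were lower and 6.54% higher, with a median over the 81 of −0.31. They included rplp1 (−0.46 ± 0.10), rplp2l (−0.52 ± 0.13), rps12 (−0.59 ± 0.16) and rps26l (−0.60 ± 0.18). With the shallow 5 dpl replicate 2 left out 9 members were lower (900 of all 13074 genes) and the median was −0.18. Within experiment 2 alone none passed (8 at an unadjusted p under 0.05), where 337 of 12023 genes were lower.

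At 10 dpl 67 members were lower than at 5 dpl and 1 was higher, where 6.81% of all genes were lower and 5.75% higher (median of the members −0.58). The smallest p values were those of rpl13a (−0.74 ± 0.10), rplp2l (−0.96 ± 0.13), rplp1 (−0.72 ± 0.10) and rpl35a (−0.71 ± 0.10). The count of lower members was 80 without the shallow library, where 1046 of all 13074 genes were lower. It was 80 in experiment 2 alone (773 of 12023 genes) and 7 in experiment 1 alone (301 of 12726), which holds that library. Rods and cones moved the other way over this step, with 8 of 10 rod genes and 13 of 15 cone genes higher at 10 dpl than at 5 dpl, and 13 of 17 genes of cycling cells were lower. Their part in the members' fall was not tested.

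From 10 to 14 dpl no member passed (edgeR, 7 at an unadjusted p under 0.05, 0 with DESeq2), where 0.0% of all genes were higher and 0.0612% lower. From 14 to 28 dpl none passed either (43 at an unadjusted p under 0.05), where 0.489% of all genes were lower and 0.314% higher. With DESeq2 7 members were lower, where 120 of all 13075 genes were. Of the 81 log2 fold changes of this last step 80 were below 0, with a median of −0.31 (−0.01 over all genes). The members were measured in the same retinas, so these signs are not independent of each other and are no test. Without 5 dpl replicate 2 in the fit, which is in neither of these groups, 16 members were lower, where 119 of all 13074 genes were.

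At 28 dpl few members differed from 0 h by the test. 6 of 81 were higher, a count close to the 4.72% of all genes that were, and 0 were lower (3.36%). The 6 were rps15a, rplp1, rpl35a, rpl39 (0.48 ± 0.14, adjusted p = 0.0233), rpl35 (0.47 ± 0.14, adjusted p = 0.029) and rpl13a (0.30 ± 0.10, adjusted p = 0.0465), and the products of rpl39 and rpl35 sit at the exit tunnel. The median over the members was 0.33, and 80 of the 81 fold changes were above 0, signs that are not independent in shared retinas. The count depended on the fit. It was 51 members without 5 dpl replicate 2, where 916 of all 13074 genes were higher. It was 11 with DESeq2 (757 of 13075 genes) and 11 in experiment 2 alone (302 of 12023). It was 0 in experiment 1 alone (364 of 12726) and without a term for experiment (279 of 13075). The members' median stayed between 0.23 and 0.36 in all fits.

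The other genes of translation had smaller medians than the members from 24 hpl to 14 dpl. Their lists were chosen from general knowledge, but with earlier results of these data known. Of 12 elongation factors 9 were higher and 2 lower at 72 hpl (median 1.57, against −0.04 over all genes). Of all genes 22.7% were higher and 20.2% lower at 72 hpl. eef1b2, of the exchange factor of eEF1A, rose by 2.43 ± 0.12, and eef2b, the translocase, by 2.18 ± 0.13. Of 11 ribosome-associated and fusion genes 10 were higher at 72 hpl (median 1.27). They include proteins of the ribosome whose symbols the pattern does not take, such as faua (S30, 1.54 ± 0.14) and rpsa (SA, 1.42 ± 0.13). These lie close to rps27a, the member fused to ubiquitin (1.47 ± 0.12).

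Initiation factors were higher for 29 of 34 genes at 24 hpl and 29 at 72 hpl, with medians of 0.94 and 0.77. Of all genes 19.0 and 22.7% were higher at these times. eif2s2, of the factor that brings the initiator tRNA, rose by 1.64 ± 0.11 at 24 hpl. The 71 mitochondrial ribosomal protein genes serve the separate ribosome of the mitochondrion. Of these, 33, 45, 22 and 39 were higher at 24, 36 and 72 hpl and 5 dpl, where 19.0, 23.6, 22.7 and 17.5% of all genes were. The medians of the 71 were 0.48, 0.67, 0.35 and 0.59 where the cytosolic members had 1.44, 1.65, 1.70 and 1.4. mrps15 had the smallest p of this list at 24 hpl (0.91 ± 0.15).

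The 30 chaperones and assembly factors of the ribosome followed another course in time. At 24 hpl 23 were higher (median 1.15), among them gnl3, the nucleolar GTPase nucleostemin (2.25 ± 0.12), grwd1 (2.51 ± 0.15), rrp12 (1.66 ± 0.12) and rrs1 (2.48 ± 0.21). At 36 hpl 22 were higher and 1 lower (median 0.99), and at 72 hpl 11 were higher and 1 lower (median 0.26). Of all genes 19.0, 23.6 and 22.7% were higher at 24, 36 and 72 hpl. The members' median was 1.65 at 36 hpl and 1.70 at 72 hpl, and in experiment 2 alone 1.87 and 1.79. One of the 30, eif6, which keeps the subunits apart, stands on the list of initiation factors too. The difference between the 2 courses was not tested.

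Of 16 genes that regulate TOP mRNAs or belong to the Myc family, 6 were higher and 4 lower at 24 hpl (median 0.04). Of all genes 19.0% were higher and 17.7% lower at 24 hpl. mycb, a Myc transcription factor, rose by 2.04 ± 0.14 at 24 hpl, and the repressors of initiation eif4ebp3l and eif4ebp1 by 2.26 ± 0.29 and 1.34 ± 0.22. rheb, an activator of mTOR, fell by 0.92 on the log2 scale. At 28 dpl 1 of the 16 was higher (eif4ebp2, 0.49 ± 0.15), where 4.72% of all genes were.

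**Figure D4:**
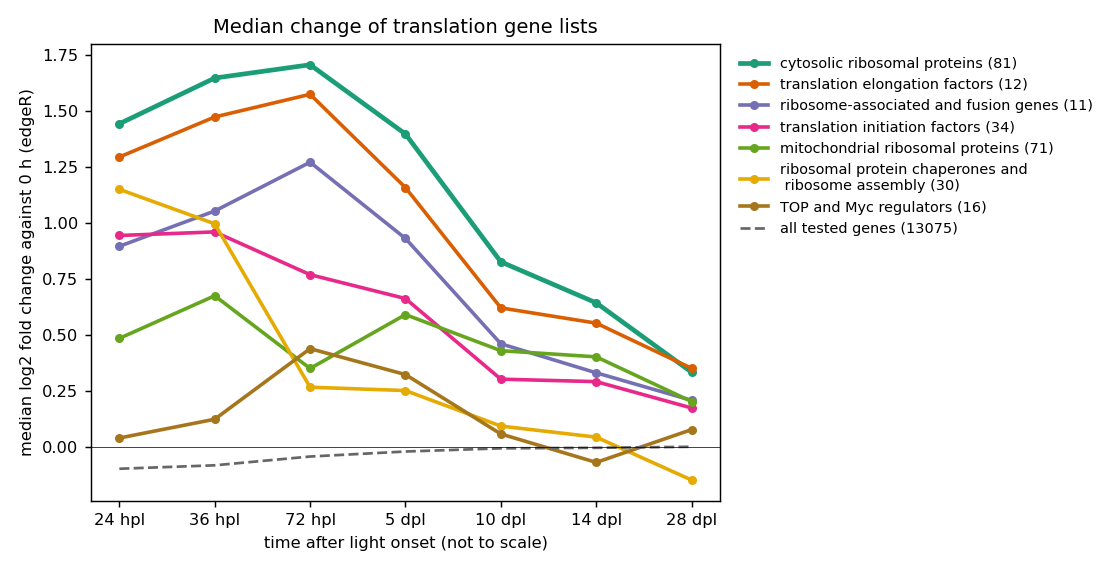
Each line is the median log2 fold change against 0 h (edgeR) of a list of translation genes by time, with the number of tested genes in brackets and all tested genes dashed. The cytosolic ribosomal proteins are at 1.65 at 36 hpl and 1.70 at 72 hpl. The list of chaperones and assembly factors is highest at 24 hpl (1.15) and at 0.26 by 72 hpl.

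Against naïve fish the members were lower both at 28 dpl and at 0 h. These tests ran on the deposited pseudo-counts, counts the authors adjusted toward a common library size, with limma on log2(pseudo-count + 1) over 11700 genes. Fold changes are on that scale and understate those of rare genes. At 28 dpl 73 of 81 members were lower and none was higher, where 17.6% of all genes were lower and 19.7% higher. At 0 h 80 were lower and none higher, where 26.9% of all genes were lower and 26.5% higher. The member median was −0.64 at 28 dpl and −0.98 at 0 h, against 0.05 and 0.02 over all genes. The 2 comparisons share the naïve retinas.

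By the summed share, the members held 3.84 to 4.65% of the pseudo-counts at 28 dpl (median 3.94%), 3.14 to 4.00% at 0 h (median 3.41%) and 3.94 to 5.65% in naïve retinas (median 4.84%). Both groups overlapped with the naïve retinas. By the median pseudo-count of 6 retinas, 80 members were lowest at 0 h, intermediate at 28 dpl and highest in naïve, and rps8b was the exception. The pseudo-count totals were highest in naïve libraries (2497761 to 2707270, against 1722570 to 2258728 at 0 h and 1901193 to 2216505 at 28 dpl). This order was not redone with equal totals, and the share of all genes in this order was not counted. In single retinas every 28 dpl value lay below every naïve value for 42 members, against 8.22% of all genes, and every 0 h value for 68, against 13.8%.

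**Figure D5:**
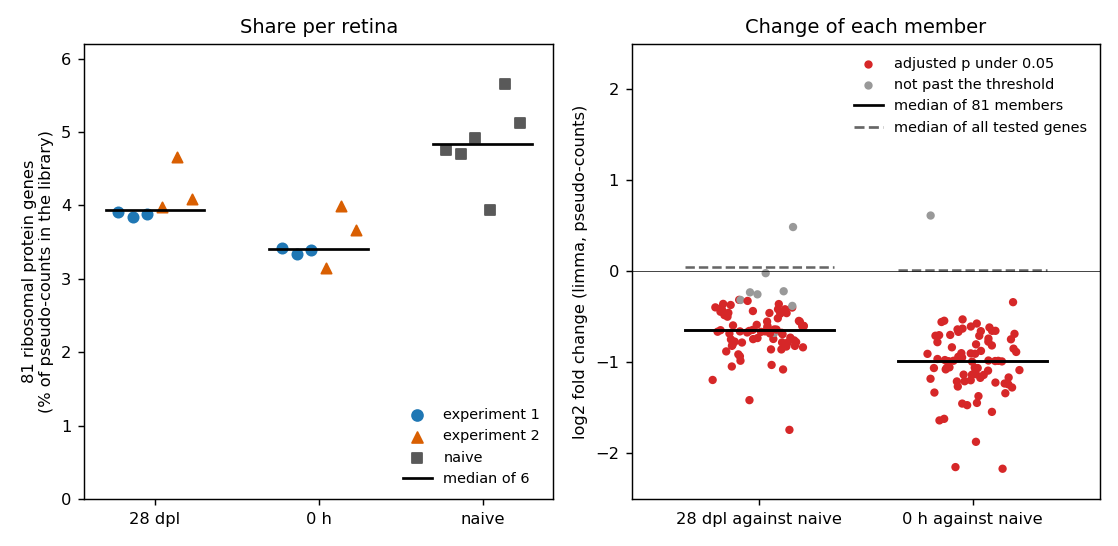
On the left each point is the percent of pseudo-counts held by the 81 members in 1 retina of the 28 dpl, 0 h and naïve groups, with a bar at the median. On the right each point is the log2 fold change of 1 member against naïve (limma), red where it passed the threshold, with the member median (−0.64 at 28 dpl and −0.98 at 0 h) as a solid line and the median of all genes dashed.

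Among the members with the smallest p were rpl4, rps8a and rpl24 at 28 dpl and rps8a, rpl4 and rps15 at 0 h. rps8a had pseudo-counts of 442, 489 and 594 at 28 dpl, 289, 382 and 460 at 0 h and 755, 897 and 994 in naïve retinas as the lowest, median and highest of 6. Its log2 fold change was −0.81 ± 0.12 at 28 dpl and −1.24 ± 0.12 at 0 h (adjusted p = 3.2e-05 and 3.5e-08 by limma), with no overlap. rpl4, of the wall of the exit tunnel, had medians of 650, 512 and 1323 (−1.03 ± 0.14 and −1.45 ± 0.14).

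The lowest value was that of rpl9, which was singled out after its values were seen. It had 251, 545 and 817 at 28 dpl, 116, 492 and 721 at 0 h and 1482, 1672 and 1768 in naïve retinas, a log2 fold change of −1.74 ± 0.37 and −2.17 ± 0.37. The 8 members that did not pass at 28 dpl were rpl7l1, rpl14, rpl29, rplp1, rps8b, rps18, rps24 and rps26l. rplp1 had 2546, 2889 and 3296 at 28 dpl and 2651, 3317 and 4277 in naïve retinas (−0.22 ± 0.13, adjusted p = 0.204). rps24 was at −0.02 ± 0.11 at 28 dpl (adjusted p = 0.905) and lower at 0 h (−0.34 ± 0.11, adjusted p = 0.0111).

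rps8b again had the opposite sign, with 16.4, 39.7 and 56.6 at 28 dpl, 17.4, 42.2 and 46.2 at 0 h and 11.5, 25.6 and 32.3 in naïve retinas. Neither difference passed (0.49 ± 0.32, adjusted p = 0.231, and 0.61 ± 0.32, adjusted p = 0.106, by limma), and both passed with the 28 dpl and 0 h retinas of experiment 1 alone (0.87 and 0.79). Its share of the pair with rps8a was a median of 7.25% at 28 dpl, 9.42% at 0 h and 3.03% in naïve retinas, where the highest retina had 3.68%. For rplp2l the medians were 44.2, 48.8 and 39.5%, and for rps26l 74.5, 74.1 and 62.5%, with no test.

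The totals of the pseudo-counts ran higher in naïve libraries than in the other 2 groups. With totals made equal, 34 members were lower and 1 higher (rps24) at 28 dpl, where 756 of 11842 genes were lower and 3901 higher. At 0 h 62 members were lower and 1 higher (rps8b), where 1374 of 11842 genes were lower and 5109 higher. The member median was then −0.29 at 28 dpl and −0.50 at 0 h. The log2 median over all genes was 0.39 at 28 dpl and 0.48 at 0 h. The member median less the median of all genes was −0.68 against −0.69 at 28 dpl and −0.99 against −1.0 at 0 h. Rescaling whole libraries shifts all genes by nearly the same amount, so this difference could hardly move and is no check. With the 28 dpl and 0 h retinas of experiment 2 alone 29 members were lower at 28 dpl and 78 at 0 h, where 810 and 2380 of all 10364 genes were. The 2 experiments themselves differed by a median of 0.46 over the members, and the sources used here tie the naïve retinas to neither. Light history and any difference in batch or age of the naïve retinas cannot be told apart. Markers of several cell types differed from naïve retinas too. At 28 dpl 6 of 10 rod genes were lower and 0 higher (median −0.50), and 6 of 15 cone genes were lower and 1 higher (−0.30). Inner retinal neurons had 7 of 20 genes lower and 2 higher (−0.17), and Müller glia 4 of 11 lower and 2 higher (0.06). Of 11 genes of neutrophils and lymphocytes 5 were higher and 0 lower (1.81). At 0 h 6 of 10 rod genes were lower and 1 higher (−0.59), and 12 of 15 cone genes were lower and 1 higher (−1.25). Müller glia had 7 of 11 genes lower and 1 higher (−0.59), and inner retinal neurons 10 of 20 lower and 3 higher (−0.40). The retinal pigment epithelium had 6 of 7 genes lower and 0 higher (−1.19). Of 11 genes of neutrophils and lymphocytes 6 were higher and 3 lower (2.35). The part of these cell types was not tested.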

How the data were processed

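3′ mRNA libraries of 54 retinas were analysed from the deposited tables, and no reads were aligned here. Reads had been aligned to zebrafish build dR10 (as the study writes it) with STAR, counted per gene with HTSeq and processed with edgeR, versions not given in the sources used here. Raw counts of reads were deposited for 48 retinas (0 h to 28 dpl), and signal values (edgeR pseudo-counts, whose totals still differ between libraries) were deposited for all 54. Row names that a spreadsheet had turned into dates (12 entries) were left out. The log2 fold changes and log2 CPM, the likelihood ratio score and the p-values that the authors deposited hold their own comparisons with 0 h and were not used. Groups came from the sample labels, and experiments from the raw-file names in the study's sample sheet.

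Tests on counts used R 4.3.3 and edgeR 4.0.16, with trimmed-mean (TMM) scaling, the quasi-likelihood test and terms for group and experiment in 1 fit of 48 libraries, and tests on pseudo-counts used limma 3.58.1 (trend, log2(value + 1), 18 libraries). Genes needed 5 reads (or 5 pseudo-counts) in at least 6 libraries. Adjusted p-values are Benjamini-Hochberg over all genes tested, and ± is the standard error. CPM use the counted reads of the library as the total, with no further scaling. The scripts were tested on simulated counts with known changes. DESeq2 1.42.0, other scalings and filters, no experiment term, a replicate block, each experiment alone and leaving out the shallow library, known from an earlier account, served as alternatives, and Python 3.11.15, pandas 2.3.3, numpy 2.4.6, scipy 1.17.1 and matplotlib 3.10.9 for tables, permutations and plots. Totals of 1111503 to 4040445 reads (228611 in 1 library) limit the precision for genes under about 50 CPM (3 members at 0 h).

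The members and the 16 lists were chosen with earlier results of these data known. Named are, per comparison, the 4 members called with the smallest p in each direction, pairs with a shared stem, the 3 with most reads at 0 h, and up to 4 genes per list; members given in full are 9 of the 10 named most often. Some results that the rule would name are not reported here. A planned search of promoter sequence was not run. Each retina is a separate fish, and p-values measure the spread between these fish.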

Additional observations from a re-analysis of the deposited data

Results flagged for a closer look

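Of 81 groups of 6 retinas (the summed share of the members and the 9 members given in full), 5 held a retina far from the other 5, where chance alone gives about 1 in 20. 5 dpl replicate 2, the shallow library, had a summed share of 3.89% (the other 5 at 8.91 to 11.2%) and 1420 CPM of rplp2l (others 2270 to 2750 CPM). 28 dpl replicate 5 had a share of 4.65% (others 3.83 to 4.09%) and 576 CPM of rps26l (others 402 to 448 CPM). 0 h replicate 6 had 8.1 CPM of rps8b (others 20.5 to 25.5 CPM).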

How the results depend on the processing

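Of the log2 fold changes of the 9 members given in full under each alternative, 1460 kept their side of the threshold, 15 passed only under the alternative and 55 only in the reported fit, and no called value changed sign. The fall of rps8b at 72 hpl and 5 dpl held in each experiment alone and with no term for experiment. Its call as lower was lost (0 members lower) at 24 and 36 hpl in experiment 1 alone, experiment 2 alone, limma on pseudo-counts, no term for experiment, total counts and a trimmed mean without the members, and at 24 hpl with no filter. Members higher numbered 45 at 10 dpl in experiment 1 alone (487 of all 12726 genes). At 14 dpl they numbered 12 in experiment 1 alone (419 of 12726) and 39 with no term for experiment (554 of 13075). At 28 dpl 11 were higher with DESeq2 (757 of all 13075 genes) and 11 in experiment 2 alone (302 of 12023). The count was 3 with total counts (417 of 13075) and 51 without 5 dpl replicate 2 (916 of 13074). It was 0 in experiment 1 alone (364 of 12726), with 7 members at an unadjusted p under 0.05 by edgeR. It was 0 with no term for experiment (279 of 13075), with 13 members at an unadjusted p under 0.05 by edgeR.

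Between 24 and 36 hpl 3 were higher with DESeq2 (968 of all 13075 genes), 5 in experiment 2 alone (378 of 12023) and 2 with total counts (777 of 13075). The count was 16 without 5 dpl replicate 2 (977 of 13074). It was 0 in experiment 1 alone (458 of 12726), with limma (693 of 12809) and with no filter (778 of 14949). It was also 0 with no term for experiment (512 of 13075) and with the replicate block (759 of 13075). Between 36 and 72 hpl 2 were higher with DESeq2 (968 of 13075 genes) and 2 with at least 20 reads (911 of 10066). The count was 4 without 5 dpl replicate 2 (1005 of 13074). It was 0 in experiment 1 alone (437 of 12726), in experiment 2 alone (413 of 12023) and with no term for experiment (612 of 13075). At 5 dpl against 72 hpl 29 were lower with DESeq2 (1115 of 13075 genes), 21 with total counts (926 of 13075) and 19 with limma (988 of 12809). The count was 7 with no filter (839 of 14949) and 6 in experiment 1 alone (628 of 12726). It was 1 with no term for experiment (591 of 13075) and 0 in experiment 2 alone (337 of 12023). At 10 against 5 dpl experiment 1 alone gave 0 higher and 7 lower, where 453 of 12726 genes were higher and 301 lower. There 33 were lower with limma (668 of 12809 genes) and 33 with no term for experiment (579 of 13075). At 28 against 14 dpl 7 were lower with DESeq2 (120 of 13075 genes) and 16 without 5 dpl replicate 2 (119 of 13074). The count was 1 with at least 20 reads (71 of 10066) and 1 with median-of-ratios size factors (64 of 13075).

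Against naïve, 1 member was higher at 28 dpl and 1 at 0 h with equal totals, where 3901 and 5109 of all 11842 genes were. The count was also 1 at each with experiment 1 alone (2675 and 2898 of 11061 genes). At 28 dpl 34 were lower with equal totals (756 of 11842) and 29 with experiment 2 alone (810 of 10364). Equal totals put 83.8% of the genes called at 28 dpl on the higher side (52.8% as reported) and 78.8% at 0 h (49.6%). Total counts put 61.9% on the higher side at 24 hpl (51.8% as reported), 37.5% at 28 dpl (58.4%) and 27.5% at 10 against 5 dpl (45.8%).

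Without the rod and cone lists in the total, the median share was 3.72% at 0 h, 6.33% at 10 dpl, 5.36% at 14 dpl, 4.41% at 28 dpl and 5.44% of pseudo-counts in naïve retinas. Leaving out these lists could move the share only a little. Without the 3 most abundant members it was 3.07% at 0 h, 10.7% at 72 hpl, 5.23% at 10 dpl and 3.60% at 28 dpl. Retinas with the same replicate number shared only a number. Their deviations from the group mean correlated at 0.0602 to 0.4393, and at −0.1116 to 0.0894 once the mean of each experiment was removed. With the replicate block 5 members were higher at 28 dpl (555 of 13075 genes) and 63 lower at 10 against 5 dpl (820 of 13075). At 28 dpl against naïve 74 were lower with it (2164 of 11700). The causes of these shifts were not tested.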
